A study of Mus musculus with 6 samples.

Results

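The genes described here are 54 nucleolar ribosome biogenesis factors, chosen from the 55291 genes of the raw count table by symbol. The symbols begin with Utp, Nop, Nol, Rrp or Polr1 followed by a number or subunit letter, or are 1 of the named factors Rrs1, Bop1, Pes1, Wdr12, Ncl, Npm1, Fbl, Dkc1, Bms1, Ltv1, Nolc1, Rrn3 and Ubtf. A symbol also needed at least 10 counts in every library and could not be a pseudogene symbol. Of the 56 symbols that matched, Utp14b-ps1 was left out as a pseudogene, and Nol3, an apoptosis repressor that shares only the prefix, was left out with 2 to 10 counts. Nol4l was the member closest to that limit, with 20 to 45 counts. Nol4 and Nol4l were kept because their names match, although neither is known as a ribosome biogenesis factor. The rule does not reach the RNA polymerase I subunits listed under the older symbols Cd3eap, Twistnb and Znrd1. The rule uses symbols and a count minimum and no fold change, but the group of genes was proposed with earlier results of these data known.

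The study asked how cells respond to small molecules that act on the mitofusins, the proteins that fuse the outer membranes of mitochondria. Poly(A) RNA was sequenced from WT mouse embryonic fibroblasts (MEFs), connective tissue cells of the embryo, in 3 groups of 2 libraries. The groups were vehicle, 1 μM MASM7 for 6 h, and 20 μM MFI8 for 6 h, where MASM7 is the mitofusin activator and MFI8 the mitofusin inhibitor. The labels do not say how long vehicle was applied, and all cells were WT with no allele or transgene named. The concentrations of the compounds differed, so compound and concentration cannot be told apart where MFI8 is set against MASM7.

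Ribosomes are made in the nucleolus. RNA polymerase I, with the rDNA-binding factor Ubtf and the initiation factor Rrn3, transcribes a long precursor rRNA. The small-subunit processome folds and cuts the precursor to release the small-subunit rRNA, box C/D and H/ACA small nucleolar ribonucleoproteins (snoRNPs) methylate and pseudouridylate it, and a separate series of assembly factors, including the Pes1, Bop1 and Wdr12 complex, builds the large subunit. Genes of this pathway are known for being expressed together in growing cells and for holding E-boxes, the sites bound by Myc and Max, near their start sites.

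RefSeq promoters (GRCm38.p6, 250 bases before to 50 bases after each start site) were matched by symbol to 43 of the 54 members. The palindromic E-box CACGTG was present in a promoter of 11 of the 43 genes (25.6%), against 11.9% of the 9317 genes that met the same count minimum and 8.09% of all 27025 genes with a promoter. The ETS motif CCGGAAG, searched on both strands, was present in 15 of the 43 (34.9%) against 21.5% of genes at the same count minimum, and the NRF1 core TGCGCA, a palindrome, in 5 (11.6%) against 16.6%. These shares describe the letters in the windows and not bound sites. Upstream stretches of Nop2 and Rrp7a, both among the members that were higher with MASM7 below, are shown because each holds an E-box, in capitals, 60 bases before the start site for Nop2 and 208 bases before it for Rrp7a. The Nop2 stretch is chr6:125131763-125131882 on the plus strand and the Rrp7a stretch is chr15:83122932-83123051 on the minus strand.
Nop2: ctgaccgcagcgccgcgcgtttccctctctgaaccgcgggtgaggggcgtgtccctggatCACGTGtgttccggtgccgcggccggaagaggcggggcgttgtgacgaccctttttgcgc
Rrp7a: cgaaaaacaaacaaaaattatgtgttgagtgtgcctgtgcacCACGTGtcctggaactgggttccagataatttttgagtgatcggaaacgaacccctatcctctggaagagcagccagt

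The libraries held 22791792 to 30677751 counts, and the 54 members took 1.225% to 1.33% of them. All members were among the 14290 genes that passed the filter on low counts and were tested. Of the fibroblast markers, Col1a1 (1106 to 1435 TPM) and Vim (1966 to 2531 TPM) were high, while Thy1 (6 to 19 counts) and Postn (7 to 19 counts) were near 0. Markers of epithelium, endothelium and blood were at 12 counts or fewer in every library, except Cd68 with 79 to 119 counts. The series' design text calls the libraries of a group independent biological replicates. Permuting 2 libraries against 2 in an exact test gives no p below 0.333 for 1 gene, so the tests below come from the fit across all genes.

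The factors were abundant in vehicle-treated MEFs and spanned a wide range in TPM. TPM is read density over a length per gene, scaled to a fixed total per library, and the length used is not stated. The median member stood at 122.5 TPM, 31 members were at 100 or above, 20 lay between 10 and 100, and 3 were under 10. The histone and ribosome chaperone Npm1 was first at 3503 ± 387 TPM (SD, n = 2), followed by Ncl, the nucleolin gene, at 875 ± 65.9 TPM. These genes of abundant nucleolar proteins also took 36.8% to 41.3% of all counts on the members. The snoRNP chaperone Nolc1 (434 ± 19.0 TPM) and the box C/D scaffold Nop56 (417 ± 21.0 TPM) came next, and their libraries overlapped each other. The large-subunit rRNA methyltransferase Nop2 followed at 381 ± 7.93 TPM, the pseudouridine synthase Dkc1 at 294 ± 5.40 TPM, Bop1 at 280 ± 2.24 TPM and Pes1 at 265 ± 3.66 TPM. In CPM, counts scaled to library size, Npm1 and Ncl were close in vehicle, at 2640 and 2521. Nop58 and Nop56 have annotated transcripts of 1713 and 1877 bases. They had 398 and 484 CPM in vehicle, but 131 and 417 TPM. The order in TPM thus depends on the unstated length as well as on the counts.

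Bop1, Pes1 and Wdr12 form 1 complex, and Wdr12 stood lower in TPM than the other members of it, at 27.8 ± 1.28 TPM. In CPM the vehicle means of Bop1, Pes1 and Wdr12 were 234, 227 and 93.9. Their annotated transcripts have 2491, 2911 and 10012 bases. How much of the gap in TPM comes from length was not tested. The lowest members were Utp14b, a retrogene copy of Utp14a, at 3.33 ± 0.445 TPM, Nol4 at 2.25 ± 0.431 TPM and Nol4l at 0.613 ± 0.140 TPM. Of the 53 pairs of neighbours in this order, 27 did not overlap between their vehicle libraries and 26 did. Across all 6 libraries, 48 members had a ratio of the highest to the lowest TPM below 1.2.

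**Figure D1:**
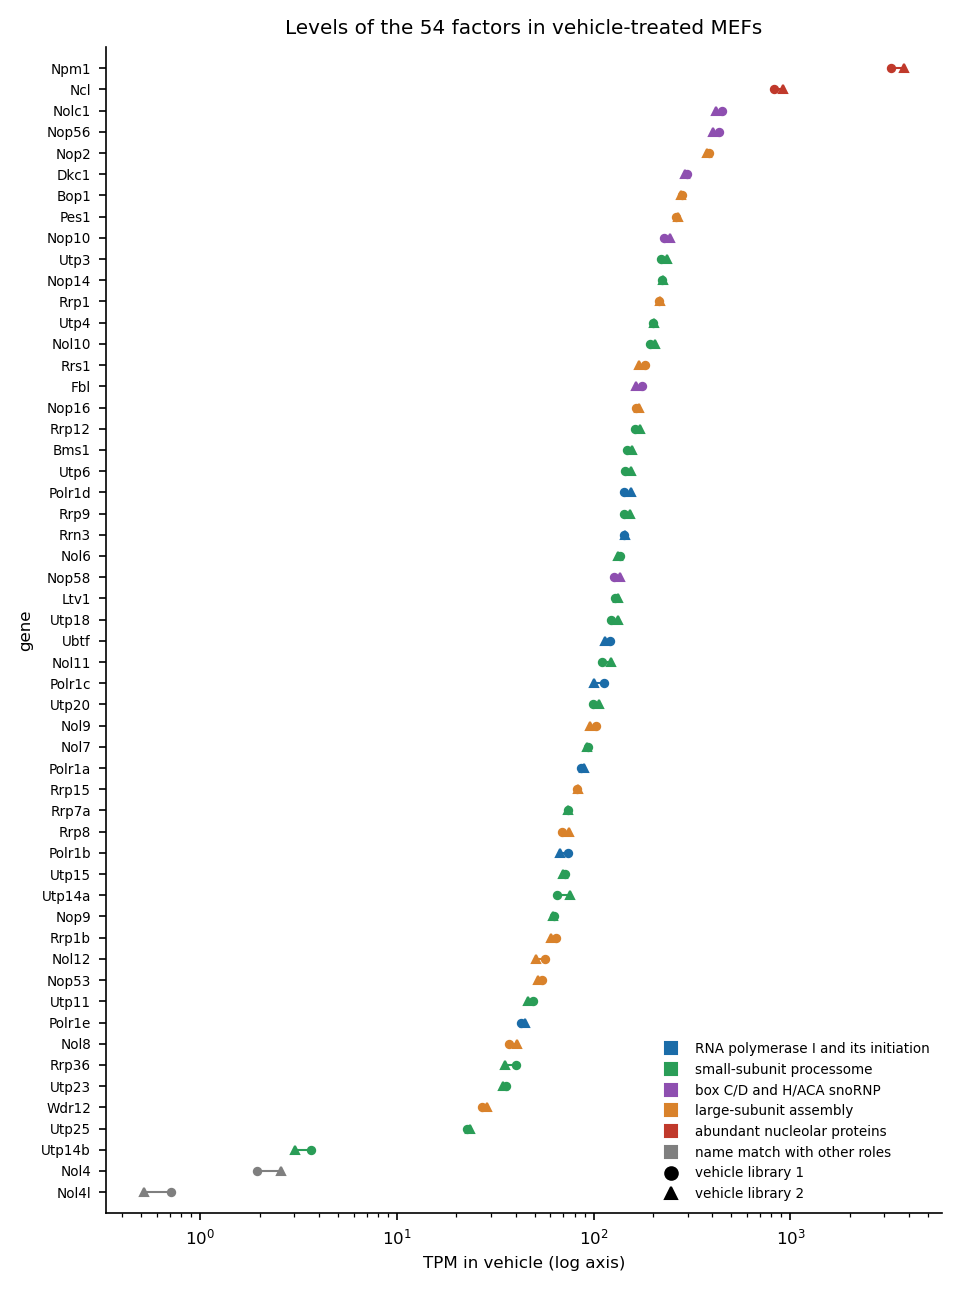
TPM (log axis) of each of the 54 factors in the 2 vehicle libraries, ordered by mean and coloured by role. Npm1 at 3503 and Ncl at 875 TPM stand above the rest, and Utp14b, Nol4 and Nol4l below 10 TPM stand under it. The order also depends on the gene length behind TPM, which is not stated.

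Some of these genes share sequence or position with other genes. Of the 50-base windows of the Fbl transcript, 70.4% also occurred in other annotated transcripts, mostly processed pseudogenes. For Npm1, with 10 such pseudogenes, the share was 40.9%, for Nop56 it was 37.6% and for Pes1 20.7%. How reads that match several genes were counted is not stated, so the effect on the counts of these 4 genes is unknown. Utp14b overlaps Acsl3, and 14 members in all overlapped another protein-coding gene, among them Bop1, Rrp9, Rrp7a and Dkc1. The strand setting of the counting is not stated. Ncl, Nop56, Nop58, Dkc1 and Nop53 carry 3, 5, 4, 1 and 1 annotated snoRNA genes within their bounds.

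With MASM7, no member passed an adjusted p of 0.05 in edgeR's quasi-likelihood test (smallest adjusted p = 0.466), nor with DESeq2 or limma. With the replicate number as a block, a pairing that the design does not establish, 7 of the 54 passed, and so did 3.88% of all genes tested. At an unadjusted p under 0.05, 11 members were higher (20.4% of the members, background 5.32% of all genes tested) and 0 were lower (4.88%). The 11 were Rrp9, Rrp7a, Bop1, Nol6, Rrp12, Nop2, Nop56, Polr1c, Utp4, Nolc1 and Nop16. The libraries did not overlap for 23 members that were higher (42.6%, background 21.2%) and 6 that were lower (11.1%, background 21.6%). The median log2 fold change over the 54 members was 0.032, against 0.00067 over all genes tested, and 34 members were above 0. In bulk samples, less RNA per cell and fewer cells of a type cannot be told apart. The count of 11 fell to 7 without MASM7 library 1 (background in that fit 4.9%), to 6 without MASM7 library 2 (2.05%) and to 5 without vehicle library 2 (3.11%). The count of lower members went from 0 to 3 without vehicle library 1 (5.53%) and to 1 without vehicle library 2 (2.46%).

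Most large-subunit assembly factors lay above vehicle with MASM7. Of 14, 13 were above it, 11 with libraries that did not overlap (background 21.2%), and their median log2 fold change was 0.089. Bop1 had 237 and 231 CPM, counts scaled to library size with TMM factors, under vehicle, 262 and 284 under MASM7 and 235 and 241 under MFI8. Both MASM7 libraries lay above the other 4, and the log2 fold change over vehicle was 0.22 (SE 0.055, adjusted p = 0.466). Nop2 had 305 and 293 CPM under vehicle, 339 and 329 under MASM7 and 319 and 303 under MFI8, a log2 fold change of 0.16 with MASM7 (SE 0.052, adjusted p = 0.473). Pes1, the partner of Bop1, was higher by 0.085 on the log2 scale (adjusted p = 0.571), Rrs1, an assembly factor, by 0.097 (adjusted p = 0.592), and Wdr12 by 0.027 (adjusted p = 0.885). The 1 factor of the role below vehicle was Nol8, at a log2 fold change of -0.10 (adjusted p = 0.592). With offsets for GC content and length, described below, Nol8 was at -0.0085 and Rrp1 went from 0.027 to -0.064. Rrs1 was then at 0.032 and Wdr12 at 0.13.

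In the small-subunit processome, 5 of 23 members were higher with MASM7 at an unadjusted p under 0.05 (background 5.32%), and the median of the role was 0.011. With the offsets for GC content and length, Nol7 (0.019), Nol10 (0.031), Nol11 (0.0099), Utp6 (0.037) and Utp15 (0.049) turned to above vehicle and Nop9 (-0.031) to below it. Rrp9, a protein of the snoRNP that guides the first cuts of the precursor, had the smallest p of the members in this contrast. It had 119 and 126 CPM under vehicle, 141 and 154 under MASM7 and 128 and 133 under MFI8, a log2 fold change of 0.27 with MASM7 (SE 0.061, adjusted p = 0.466). Each MASM7 library was above each of the other 4. The gene lies at chr9:106475963-106485424 on the plus strand of GRCm38, and Bop1 at chr15:76452989-76477277 on the minus strand. Rrp7a had 115 and 113 CPM under vehicle, 129 and 135 under MASM7 and 121 and 122 under MFI8 (log2 fold change 0.21 with MASM7, SE 0.052, adjusted p = 0.466). Nol6 had 202 and 195 CPM with vehicle and 224 and 227 with MASM7 (0.18, SE 0.050, adjusted p = 0.466). Rrp12, a HEAT-repeat protein needed for subunit maturation and export, had 200 and 208 CPM with vehicle and 226 and 230 with MASM7 (0.16, SE 0.052, adjusted p = 0.473). None of these libraries overlapped between vehicle and MASM7. The processome GTPase Bms1 was at a log2 fold change of -0.048 (adjusted p = 0.796) and the export factor Ltv1 at -0.12 (adjusted p = 0.531).

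Among the 6 snoRNP proteins, Nop56 (log2 fold change 0.15, adjusted p = 0.473) and Nolc1 (0.13, adjusted p = 0.479) were higher with MASM7 at an unadjusted p under 0.05. The box C/D methyltransferase Fbl was at 0.14 (adjusted p = 0.501). Dkc1 was at a log2 fold change of -0.00026 and Nop58, the second box C/D scaffold, at -0.092 (adjusted p = 0.543), so the scaffold partners Nop56 and Nop58 lay on opposite sides of vehicle. Of the 7 polymerase I members, Polr1c, a subunit shared with RNA polymerase III, was at 0.18 (adjusted p = 0.477). The catalytic subunit genes Polr1a and Polr1b were at 0.10 (adjusted p = 0.501) and 0.066 (adjusted p = 0.724), Rrn3 at 0.011 (adjusted p = 0.955) and Ubtf at 0.046 (adjusted p = 0.768). Of the abundant nucleolar proteins, Npm1 was at -0.14 (adjusted p = 0.531) and Ncl at -0.032 (adjusted p = 0.873). Over all alternative fits, those without a library among them, Nop56 ran from 0.092 to 0.21 and Nolc1 from 0.075 to 0.18. Polr1c ran from 0.085 to 0.28 and Npm1 from -0.24 to -0.031. With offsets for GC content and length, 10 of the 54 members changed sign, among them Ncl (0.052), Dkc1 (0.075) and Ubtf (-0.0086), while Fbl was at 0.044, Npm1 at -0.056 and Nop58 at -0.016.

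**Figure D2:**
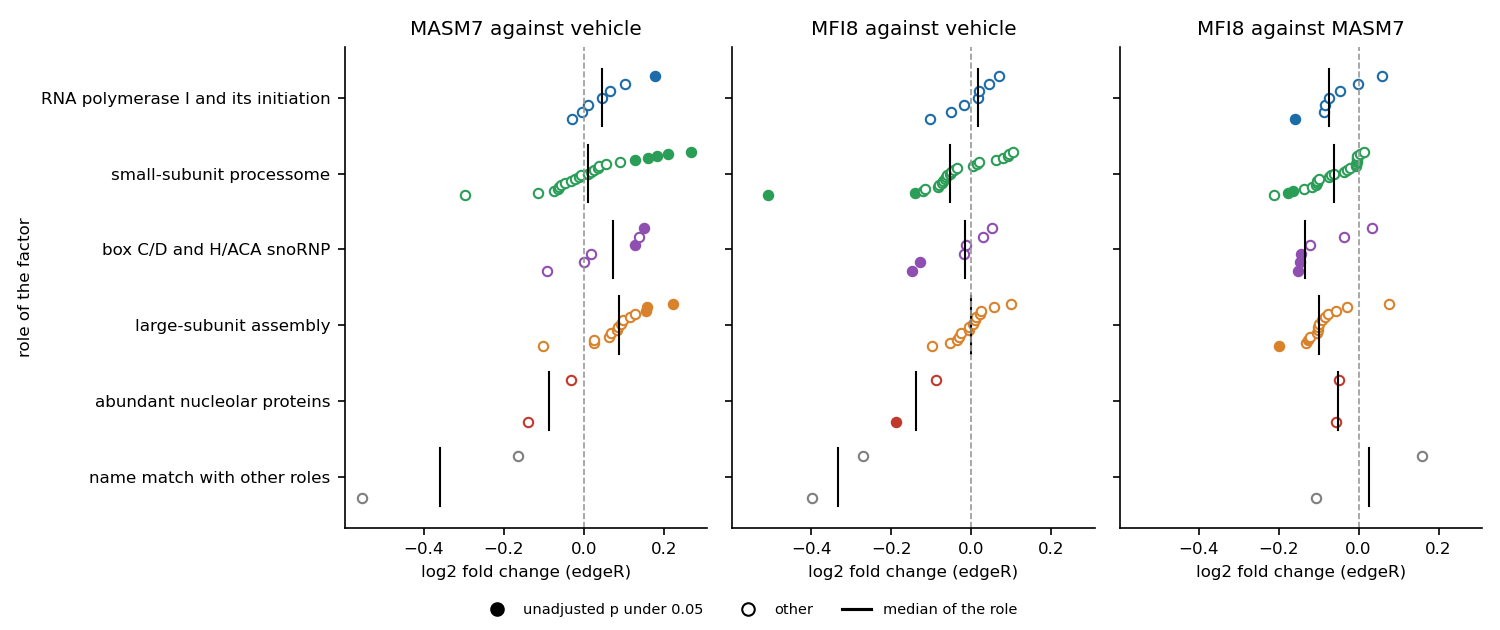
Log2 fold changes from edgeR (x axis) for the 54 factors, by role (y axis), in the 3 comparisons. Each circle is a gene, filled at an unadjusted p under 0.05, and the black line is the median of the role. The large-subunit factors centre at 0.089 for MASM7 against vehicle and at -0.10 for MFI8 against MASM7.

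GC content moved with these differences, for the members as for all genes. GC content was that of the longest principal transcript annotated for each gene, or of the longest transcript where none was principal. For the members it ran from 40.4% to 59.8%. Across the 54 members, the log2 fold change with MASM7 had a Pearson correlation of 0.48 and a Spearman correlation of 0.67 with it. Across 14160 genes with a GC value, the correlations were 0.27 and 0.45. The points share the same 4 libraries and are not independent. Of the 27 members with higher GC content, 23 were above vehicle, against 11 of the 27 with lower GC content. The median log2 fold changes of these members were 0.10 and -0.012. Over all genes in the same GC ranges the medians were 0.067 and -0.054. Rrp9 (59.8%) and Bop1 (58.3%) had the highest GC content of the 54, and Npm1 (42.4%) and Ncl (42.8%) were near the low end. With offsets for GC content and length in the fit, an alternative chosen after seeing the data, 38 of the 54 members were above vehicle, the median was 0.048 and 12 of the 14 large-subunit factors were above vehicle. The 6 members of the 11 that follow moved closer to vehicle in that fit. The log2 fold change went from 0.27 to 0.13 for Rrp9, from 0.22 to 0.11 for Bop1, from 0.21 to 0.14 for Rrp7a, from 0.18 to 0.087 for Nol6, from 0.16 to 0.079 for Rrp12 and from 0.16 to 0.087 for Nop2. At an unadjusted p under 0.05, 8 members were then higher (background in that fit 2.81%), of which 6 were among the 11 (Bop1, Nolc1, Nop16, Nop56, Rrp7a and Utp4). Rrp9, Nol6, Rrp12, Nop2 and Polr1c no longer were, and Wdr12 and Utp18 were added. For MFI8 against vehicle the correlations with GC content over the members were 0.43 and 0.58, against 0.17 and 0.30 over all genes with a GC value.

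**Figure D3:**
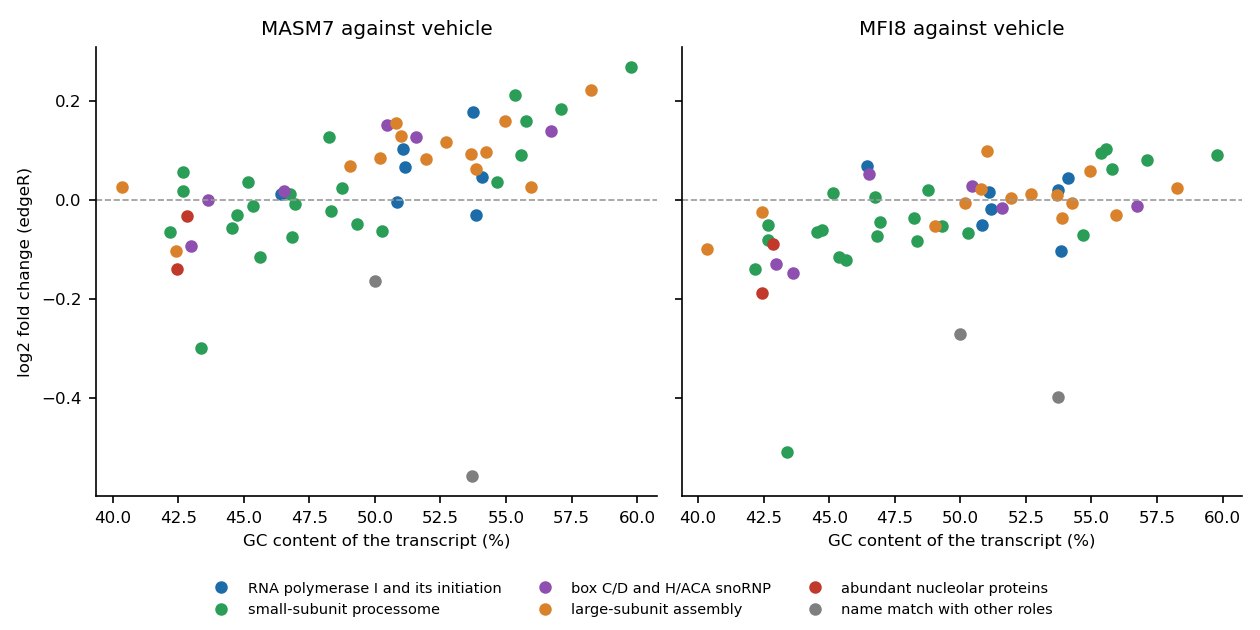
Log2 fold change against vehicle (y axis) and GC content of the transcript in percent (x axis) for the 54 factors, coloured by role, with MASM7 (left) and MFI8 (right). With MASM7, 23 of the 27 members with higher GC content and 11 of the 27 with lower GC content lie above 0. Over all genes in these GC ranges the medians with MASM7 were 0.067 and -0.054.

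With MFI8, slightly more members lay below vehicle than above it, against the same 2 vehicle libraries that MASM7 was set against. No member passed an adjusted p of 0.05 in edgeR (smallest adjusted p = 0.398), nor with DESeq2 or limma, while with the replicate block 3 of the 54 passed, and so did 5.04% of all genes. At an unadjusted p under 0.05, 0 members were higher (background 5.21%) and 5 were lower (9.26% of the members, background 4.65%). The libraries did not overlap for 6 higher members (11.1%, background 20.9%) and 14 lower ones (25.9%, background 19.3%). The median log2 fold change was -0.027, against 0.0027 over all genes tested, with 33 members below 0 and 21 above. With the GC and length offsets 40 members were below 0 and 14 above, and the median was -0.035, against -0.0052 over all genes. On the TPM scale, which limma tested over 53 members, the median was 0.0034 and 27 members were above vehicle, and the median of all genes was 0.025. The sign of the members' median against vehicle thus turned with the scale, and on both scales it lay below the median of all genes. Of the 10 fibroblast markers, 9 lay below vehicle, 0 of them with libraries that did not overlap, and the median log2 fold change of the 10 was -0.24. Their summed level was 8687 to 10744 CPM with vehicle and 8589 to 9981 with MFI8, and their part in the result was not tested. The count of 5 fell to 2 without MFI8 library 1, MFI8 library 2 or vehicle library 2, beside 4.05%, 2.56% and 3.41% of all genes, so it was then near the background.

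The log2 fold changes ran from -0.51 to 0.10. The processome had 15 of 23 members below vehicle and a median of -0.052, and the large-subunit factors had 7 of 14 below it and a median of -0.00020. These counts depend on the GC and length offsets. With them the large-subunit factors Bop1 (-0.059), Rrp1b (-0.034), Rrp8 (-0.023) and Nol9 (-0.023) fell below vehicle and Nol8 (0.022) rose above it. Of the processome, Nol6 (-0.0074), Rrp12 (-0.011) and Utp20 (-0.036) fell below it and Utp18 (0.0068) rose above it. The 5 lower members came from 3 roles. Utp14b had 7.98 and 6.52 CPM under vehicle, 6.36 and 5.42 under MASM7 and 4.79 and 5.35 under MFI8. Both MFI8 libraries were below both vehicle libraries, with a log2 fold change of -0.51 (SE 0.16, adjusted p = 0.398), on 110 to 188 counts a library and at a locus that overlaps Acsl3. Its parent gene Utp14a was at -0.072 (adjusted p = 0.769). Dkc1 had 350 and 337 CPM under vehicle, 352 and 334 under MASM7 and 318 and 302 under MFI8 (-0.15, SE 0.054, adjusted p = 0.429). The MFI8 libraries of Dkc1, a gene at chrX:75095854-75109777 on the plus strand, were the lowest of the 6.

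Npm1 had 2451 and 2830 CPM under vehicle, 2338 and 2456 under MASM7 and 2211 and 2426 under MFI8 (log2 fold change -0.19 with MFI8, SE 0.072, adjusted p = 0.445). The gene lies at chr11:33152287-33163206 on the minus strand, and its vehicle libraries differed from each other by more than the lower of them differed from MFI8 library 2. The log2 fold change of Npm1 was -0.079 without vehicle library 2, -0.29 without vehicle library 1 and -0.12 without MFI8 library 1. Nop58 had 387 and 409 CPM under vehicle, 375 and 372 under MASM7 and 361 and 367 under MFI8 (-0.13, SE 0.050, adjusted p = 0.449). Nol7, a processome protein, had 73.6 and 71.7 CPM under vehicle, 68.4 and 70.4 under MASM7 and 68.0 and 63.9 under MFI8 (-0.14, SE 0.060, adjusted p = 0.483). The GC content of these 5 genes ran from 42.2% for Nol7 to 43.6% for Dkc1, against 40.4% to 59.8% over all members. With the GC and length offsets, Utp14b (-0.51) was the 1 of the 5 still lower at an unadjusted p under 0.05, and Nop9 (-0.13) was added (background in that fit 3.77%). The log2 fold changes then were -0.10 for Dkc1, -0.11 for Npm1, -0.058 for Nop58 and -0.066 for Nol7. Without the offsets, Ncl was at -0.089 (adjusted p = 0.651), Polr1a at 0.017 (adjusted p = 0.934), Rrn3 at 0.069 (adjusted p = 0.688), Ubtf at 0.045 (adjusted p = 0.815), Fbl at -0.012 (adjusted p = 0.965), Bop1 at 0.024 (adjusted p = 0.917) and Wdr12 at -0.099 (adjusted p = 0.592). With the offsets 11 of the 54 members changed sign, among them Polr1a (-0.066), Ubtf (-0.012) and Bop1 (-0.059).

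**Figure D4:**
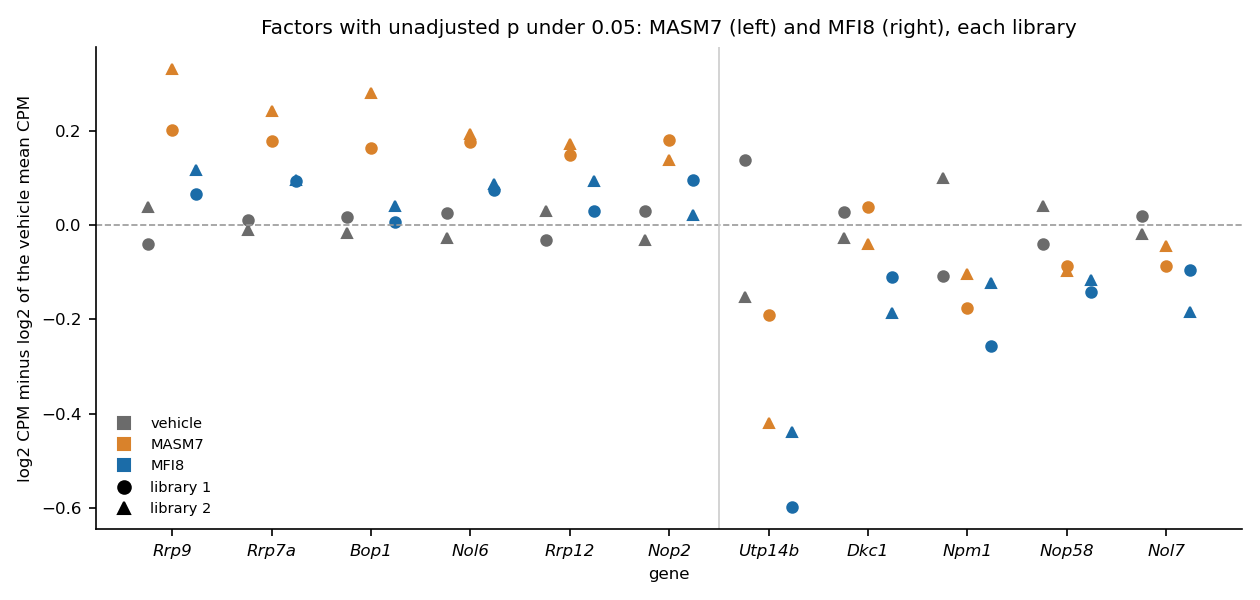
Log2 CPM of each library minus the log2 of the vehicle mean CPM (y axis) for the 6 members with the smallest p among those higher with MASM7 (left of the line) and the 5 lower with MFI8 (right). Circles and triangles are libraries 1 and 2. For Rrp9, Rrp7a, Bop1, Nol6, Rrp12 and Nop2 both MASM7 libraries lie above both vehicle libraries.

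Set directly against each other, MFI8 lay below MASM7 for most members. Of the 54 members, 48 were below 0 in this contrast, and the median log2 fold change was -0.080, against -0.0015 over all genes tested. No member passed an adjusted p of 0.05 in edgeR (smallest adjusted p = 0.515), DESeq2 or limma, while with the replicate block 3 of the 54 did, as did 3.07% of all genes. At an unadjusted p under 0.05, 8 were lower (14.8% of the members, background 2.95%) and 0 higher (4.23%). Libraries did not overlap for 34 lower members (63%, background 19.6%) and 1 higher member, Nol8 (background 19.6%). By library size alone 41 members were below 0, on the TPM scale 36 of 53 were, and with the GC and length offsets 48 of 54 were. With those offsets 11 members were lower at an unadjusted p under 0.05 (background in that fit 4.12%), of which 5 were among the 8 (Bop1, Dkc1, Nolc1, Utp4 and Wdr12), while Fbl (-0.092), Polr1c (-0.11) and Rrp9 (-0.11) no longer were. The count of 8 fell to 2 without MASM7 library 2 (background in that fit 1.79%), to 4 without MFI8 library 1 (3.19%) and to 3 without MFI8 library 2 (1.65%). All 10 fibroblast markers were also lower with MFI8 than with MASM7 (median log2 fold change -0.21, 1 with libraries that did not overlap), with a summed level of 9744 to 10811 CPM with MASM7, and their part in the result was not tested.

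The 8 lower members were Bop1, Utp4, Rrp9, Nolc1, Dkc1, Fbl, Polr1c and Wdr12. Bop1 differed by -0.20 on the log2 scale (SE 0.055, adjusted p = 0.515) and Rrp9 by -0.18 (SE 0.061, adjusted p = 0.609), on the CPM values given above. Utp4, a processome protein, had 214 and 215 CPM with MASM7 and 195 and 187 with MFI8, against 196 and 196 with vehicle (-0.16, SE 0.050, adjusted p = 0.544). The vehicle libraries of Utp4 lay between those of MASM7 and those of MFI8. Nolc1 had 531 and 534 CPM with MASM7 and 487 and 476 with MFI8, against 505 and 469 with vehicle (-0.14, SE 0.052, adjusted p = 0.62). Fbl had 216 and 230 CPM with MASM7 and 192 and 209 with MFI8 (-0.15, SE 0.065, adjusted p = 0.673), on reads that 2 processed pseudogenes could share. Without MFI8 library 1 the value of Fbl was -0.086, and without MASM7 library 2 that of Rrp9 was -0.11.

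Dkc1 differed between the compounds by -0.15 (SE 0.054, adjusted p = 0.633) with MASM7 at the vehicle level. By role, 13 of 14 large-subunit factors, 21 of 23 processome factors, 5 of 6 snoRNP proteins and 6 of 7 polymerase I members were lower with MFI8 than with MASM7. The snoRNP proteins had the median furthest from 0, at -0.13.

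The E-box occurred both in members that were higher with MASM7 and in others. Of the 11 that were higher, 8 had a promoter and 3 held the E-box (Nop2, Rrp7a and Utp4), and of the 35 other members with a promoter 8 held it. Myc, which binds this motif, was at 171 and 145 CPM in vehicle, at 181 and 168 in MASM7 and at 197 and 203 in MFI8 libraries. The difference from vehicle on the log2 scale was 0.34 with MFI8 (SE 0.077, adjusted p = 0.270) and 0.14 with MASM7 (adjusted p = 0.541).

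Other genes of the pathway were taken in 5 lists that hold no member. Of the 117 tested, 26 were higher (background 5.32%) and 2 lower (4.88%) with MASM7 at an unadjusted p under 0.05, with a median log2 fold change of 0.055 and 75 above vehicle, and none passed adjustment in edgeR. With MFI8, 3 were higher (background 5.21%) and 13 lower (4.65%), with a median of -0.018. The counts of the single lists below stand against the same backgrounds, and those of 1 or 2 genes are too small to be read against them. Of 45 other large-subunit factors, 10 were higher and 0 lower with MASM7, with the smallest p for Noc2l (0.21, adjusted p = 0.466). With MFI8, 2 were higher and 5 lower, where the large assembly ATPase Mdn1 was at 0.21 (adjusted p = 0.361) and Nifk at -0.20 (adjusted p = 0.398). Of 34 other small-subunit factors, 7 were higher and 0 lower with MASM7, led by Bysl (0.19, adjusted p = 0.473), and 0 were higher and 4 lower with MFI8, led by the helicase Ddx52 (-0.17, adjusted p = 0.398). Of 13 other snoRNP factors, 4 were higher and 1 lower with MASM7, where the H/ACA core protein Nhp2 was at 0.16 (adjusted p = 0.473) and the H/ACA assembly factor Naf1 at -0.13 (adjusted p = 0.488). Of 12 polymerase I cofactors, 2 were higher with MASM7, led by Taf1c of the promoter selectivity factor (0.34, adjusted p = 0.473), and 1, Myc, was higher with MFI8.

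Of the 3 polymerase I subunits under older symbols, Twistnb was at -0.16 with MASM7 (adjusted p = 0.479) and at -0.20 with MFI8 (adjusted p = 0.398), Cd3eap at 0.00040 and -0.10, and Znrd1 at 0.056 and 0.012. Only Twistnb had an unadjusted p under 0.05 in either comparison.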

How the data were processed

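The authors used Trimmomatic for trimming, STAR for alignment to GRCm38 and featureCounts for counting over exons. They deposited raw counts per gene, normalized counts (a signal, the raw values over library size factors equal to those of DESeq2) and TPM values. The annotation release, the strand setting and the gene length behind TPM are not given in the sources used here. Raw counts of all 6 libraries were fitted in edgeR 4.0.16 (R 4.3.3) with TMM factors, filterByExpr and 1 coefficient per group, and the quasi-likelihood F test was two-sided, with Benjamini-Hochberg adjustment over 14290 genes at 0.05. CPM used TMM factors. Deposited TPM was used for levels only and, in limma 3.58.1, as an alternative on log2(TPM + 1). The test was also run on simulated counts with planted changes larger than that of any member, which does not bear on changes of the size seen here. GC content and gene bounds came from the GENCODE vM21 annotation of GRCm38.

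Named members had an unadjusted p under 0.05 and libraries that did not overlap (at most 6 per direction and comparison), were the 5 highest or 3 lowest by TPM, or were core factors. From each other list the gene with the smallest p per direction was eligible. Polr1c, Nop16, Nol8, Nol9, Nol10, Nol11, Nop9, Rrp1, Rrp1b, Rrp8, Utp6, Utp14a, Utp15, Utp18, Utp20 and the subunits under older symbols were named after their values were seen. Members and lists were chosen with earlier results of these data known. Alternatives were other size factors and filters, DESeq2 1.42.0, limma, the replicate number as a block, and each library left out.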

Additional observations from a re-analysis of the deposited data

How the results depend on the processing

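The direction of the median log2 fold change of the members was kept in every alternative for MASM7 against vehicle and for MFI8 against MASM7, and turned for MFI8 against vehicle on log2(TPM + 1) and log2(TPM + 0.1), with medians of 0.0034 and 0.0035. The medians of all genes on these scales were 0.025 and 0.027, so the members still lay below them. With limma on either TPM scale, MFI8 against vehicle had 2 members higher and 0 lower at an unadjusted p under 0.05, MASM7 against vehicle had 1 lower, and MFI8 against MASM7 had 2 lower with medians of -0.034 and -0.039. On log2(TPM + 1) the shares of all genes were 6.66% and 3.43%, 5.41%, and 1.84%. Without a filter beyond 1 count, 1 member passed the adjusted threshold for MFI8 (Npm1) and 2 for MASM7 (Rrp9 and Bop1), beside 0.957% and 0.475% of all genes, and 1 member was lower with MASM7 at an unadjusted p under 0.05 (2.62% of all genes). By library size alone, 5 members were lower with MFI8 than with MASM7 (1.91% of all genes). With offsets for GC content and length, 2 members (Utp14b and Nop9) were lower with MFI8 than with vehicle (3.77%). The cause of these changes was not tested.

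Leaving out 1 library at a time left 0 members past the adjusted threshold in each comparison, where a lone library is assumed to vary like the other groups. At an unadjusted p under 0.05, 2 to 4 members were then lower with MFI8 than with vehicle (2.56% to 4.84% of all genes), 5 to 12 higher (2.05% to 7.28%) and 0 to 3 lower (1.81% to 5.53%) with MASM7 than with vehicle, and 2 to 10 lower with MFI8 than with MASM7 (1.65% to 3.41%).

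Same-numbered libraries of different groups deviated from their group means with correlations of 0.19 (vehicle and MASM7), 0.15 (vehicle and MFI8) and 0.16 (MASM7 and MFI8) over 14290 genes, and of 0.51, 0.62 and 0.54 over the 7145 genes with higher counts. The deviations had the same sign for 34, 40 and 36 of the 54 members. This is a hint of pairing from the data. No label names a shared batch or culture for a number, and there are 2 numbers, so the design does not establish it. With the replicate number as a block, 3 members passed the adjusted threshold for MFI8 against vehicle (Npm1, Dkc1 and Utp14b, lower), 7 for MASM7 against vehicle (Rrp9, Bop1, Rrp7a, Nol6, Nop2, Rrp12 and Nop56, higher) and 3 for MFI8 against MASM7 (Bop1, Rrp9 and Utp4, lower), beside 5.04%, 3.88% and 3.07% of all genes. At an unadjusted p the block gave 8 lower for MFI8 (9.07% of all genes), 15 higher (10.6%) and 4 lower (9.31%) for MASM7, and 20 lower (7.61%) for MFI8 against MASM7. With the replicate block and the GC and length offsets together, 2, 2 and 10 members passed the adjusted threshold, beside 4.7%, 1.41% and 5.58% of all genes, and at an unadjusted p 2 were higher (7.22% of all genes) and 11 lower (9.96%) for MFI8, 19 higher (7.33%) and 1 lower (6.14%) for MASM7, and 27 lower (10.7%) for MFI8 against MASM7.

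Of the values of single named members under the alternatives other than leaving out a library, 166 kept their side of the adjusted threshold and their direction, and 21 passed it, under the block or without the filter.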

Other observations

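The RNA exosome, which trims rRNA precursors, was measured through 13 genes. Of these, 3 were higher (background 5.32% of all genes tested) and 1 was lower (4.88%) with MASM7 than with vehicle at an unadjusted p under 0.05, with a median log2 fold change of 0.0051, and 0 were higher (5.21%) and 3 lower (4.65%) with MFI8, with a median of -0.083. The ring subunit gene Exosc4 was at 54.6 and 53.8 CPM in vehicle, at 61.2 and 64.8 in MASM7 and at 58.4 and 58.8 in MFI8 libraries, a log2 fold change of 0.22 with MASM7 (SE 0.060, adjusted p = 0.466). The nuclease Dis3 was at -0.15 with MFI8 (adjusted p = 0.438).

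Of 9 genes linked to nucleolar stress and p53, Trp53 and Rpl5 among them, 2 were higher with MASM7 (background 5.32%) and 1 with MFI8 (5.21%) at an unadjusted p under 0.05. None was lower, and these counts are too small to be read against the background. Sesn2, a stress-induced gene that other pathways also induce, was at 25.7 and 30.3 CPM in vehicle, at 32.4 and 38.3 in MASM7 and at 34.0 and 44.2 in MFI8 libraries, with a log2 fold change of 0.48 with MFI8 (SE 0.13, adjusted p = 0.357). Trp53 was at 0.14 with MASM7 (adjusted p = 0.473) and at -0.012 with MFI8 (adjusted p = 0.953). The ribosomal protein gene Rpl5 was at -0.11 with MFI8 (adjusted p = 0.533).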
